A study of Mus musculus with 12 samples.

Results

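The collagen genes of mouse gastrocnemius, a mostly fast-twitch calf muscle, are described here on 12 microarrays. They are the genes whose symbol on the array platform has the form Col, a number, a, a number, such as Col1a1. This rule finds 44 of 22180 named genes, and where a gene has more than 1 probeset, the one with the highest mean over all arrays stands for it. The mean signal of 40 of them reached 5.32 on the log2 scale, the level above which genes were tested, and 13308 genes in all were tested. Col4a6, Col6a4, Col9a1 and Col10a1 stayed under that level.

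The arrays form 4 groups of 3 FVB mice labelled male and aged 2 to 3 months. They are sedentary wild type, sedentary ERRα-null, exercised wild type and exercised ERRα-null, where exercised mice were sampled 2 h after running on a treadmill until exhausted. ERRα-null mice lack the estrogen-related receptor alpha, a nuclear receptor encoded by Esrra that drives mitochondrial energy genes. Whole muscle was used, so fewer cells of a type and less RNA per cell cannot be told apart. The labels name the replicates biological, and do not say how the null allele was made.

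Collagens are secreted or membrane proteins in which 3 chains wind into a triple helix. In muscle, types I and III form the fibrils of the connective tissue sheaths, type IV forms the sheet-like network of the basement membrane around each fibre and capillary, and type VI links the fibrils to that network. Most transcripts of types I, III and VI come from fibroblasts and tendon cells rather than from muscle fibres. Fibril-associated collagens, such as types XII and XIV, bind the surface of fibrils, and multiplexins, types XV and XVIII, sit at basement membranes.

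Several arrays stand apart. A second label of the samples gives another exercise state than the titles for the sedentary ERRα-null and the exercised wild-type arrays; the titles were used. Esrra ran from 7.41 to 7.63 on wild-type arrays and from 6.55 to 6.89 on ERRα-null arrays. Exercised wild type replicate 3 and exercised ERRα-null replicates 2 and 3 had Xist at 7.82 to 7.90, a female profile, against at most 4.30 elsewhere. Liver, brown fat, B-cell and seminal vesicle transcripts were high on some arrays, mostly sedentary ones, with Alb from 6.24 to 12.82 and Ucp1 from 4.59 to 10.93. The 9 muscle fibre markers were present on every array, with Acta1, skeletal actin, between 13.58 and 13.70 and Myh7, the slow myosin, between 9.81 and 11.29.

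Promoter sequences are shown for the Col4a1 and Col4a2 pair, whose windows overlap, and for Col11a1, whose window holds letters of the ERR response element. RefSeq windows of GRCm38.p6, from 250 bases before to 50 after a start, covered 35 of the 44 genes in 38 windows. Col12a1, Col14a1, Col1a1, Col22a1, Col26a1, Col2a1, Col4a3, Col5a2 and Col9a3 had none there. Col4a1 lies on the minus strand at chr8:11312777-11313076 and Col4a2 on the plus strand at chr8:11312555-11312854. Their annotated starts are 21 bases apart, and capitals mark the 78 bases that both windows hold, as reverse complements of each other. Col11a1 lies on the plus strand at chr3:114030290-114030589, and capitals mark the ERR letters.
Col4a1: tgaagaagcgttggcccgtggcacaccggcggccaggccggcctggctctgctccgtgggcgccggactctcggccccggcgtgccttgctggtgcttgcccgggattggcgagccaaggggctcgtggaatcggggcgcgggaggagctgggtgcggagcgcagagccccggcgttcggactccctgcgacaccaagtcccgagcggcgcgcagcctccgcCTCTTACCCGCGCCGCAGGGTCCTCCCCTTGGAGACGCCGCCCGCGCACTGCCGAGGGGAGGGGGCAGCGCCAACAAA
Col4a2: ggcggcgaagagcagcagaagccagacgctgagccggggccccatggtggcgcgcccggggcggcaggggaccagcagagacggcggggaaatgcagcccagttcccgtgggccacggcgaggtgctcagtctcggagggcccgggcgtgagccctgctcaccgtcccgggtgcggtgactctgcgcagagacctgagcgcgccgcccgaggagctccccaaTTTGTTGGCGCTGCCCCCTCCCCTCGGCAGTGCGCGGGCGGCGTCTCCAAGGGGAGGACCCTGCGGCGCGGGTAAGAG
Col11a1: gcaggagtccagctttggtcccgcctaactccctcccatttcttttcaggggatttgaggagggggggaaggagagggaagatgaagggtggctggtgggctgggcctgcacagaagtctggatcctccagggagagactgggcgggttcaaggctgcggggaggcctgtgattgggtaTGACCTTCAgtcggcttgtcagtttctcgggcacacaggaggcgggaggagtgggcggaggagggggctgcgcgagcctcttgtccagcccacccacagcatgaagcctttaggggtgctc

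The ERR response element was searched as TNAAGGTCA on either strand. Col11a1, a minor fibrillar collagen, held it on the opposite strand, from 71 to 63 bases before the start, and was the 1 of 38 collagen windows to do so (2.63%). Of all 32851 windows, 1.28% held it. The stricter TCAAGGTCA was in 0 of 38 collagen windows and in 0.423% of all. The GC box GGGCGG, on either strand, was in 60.5% of collagen windows and in 35.7% of all, and CCAAT in 34.2% and 37.4%. These are matches of letters in short windows, and say nothing of binding. Col11a1 itself was not called by genotype. ERRα-null minus wild type was −0.11 ± 0.31 at rest (log2, SE of the model; limma, adjusted p = 0.966). After exercise it was 0.04 ± 0.31 (adjusted p = 0.989).

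Type I collagen, the main chain pair of thick fibrils, varied widely between the mice of a group, with a pooled SD of 0.68 for Col1a1, where the group means lay between 10.09 and 10.86. Col1a1 was at 10.95, 10.83 and 9.09 (log2 level) in sedentary wild type, and at 9.58, 10.68 and 10.00 in sedentary ERRα-null muscle. After exercise it was at 11.28, 9.96 and 10.72 in wild type and at 11.00, 10.86 and 10.72 in ERRα-null muscle. Sedentary wild type replicate 3 was lowest of all and exercised wild type replicate 1 highest. The wild-type groups overlapped, while every exercised ERRα-null array lay above every sedentary ERRα-null one.

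Col1a2, the partner chain of type I collagen, had the same highest array as Col1a1 in 4 of 4 groups. It was at 10.47, 10.11 and 8.88 in sedentary wild type, 9.17, 10.20 and 9.55 in sedentary ERRα-null, 10.80, 9.51 and 10.07 in exercised wild type, and 10.29, 10.16 and 10.17 in exercised ERRα-null muscle. The low arrays were again sedentary wild type replicate 3 and sedentary ERRα-null replicate 1. Its second probeset gave SDs of 0.95, 0.46, 0.66 and 0.06 in these groups, where the first gave 0.84, 0.52, 0.65 and 0.07.

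Col3a1, the chain of the fine reticular fibrils, was at 9.57, 9.86 and 8.72 in sedentary wild type and 8.77, 9.81 and 8.75 in sedentary ERRα-null muscle. It was at 9.48, 8.98 and 9.13 in exercised wild type and 9.58, 9.75 and 9.49 in exercised ERRα-null muscle. The exercised genotypes did not overlap, and the difference of 0.41 ± 0.30 (log2, SE of the model) did not pass (limma, adjusted p = 0.745). A gene is called changed at an adjusted p under 0.05.

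**Figure D1:**
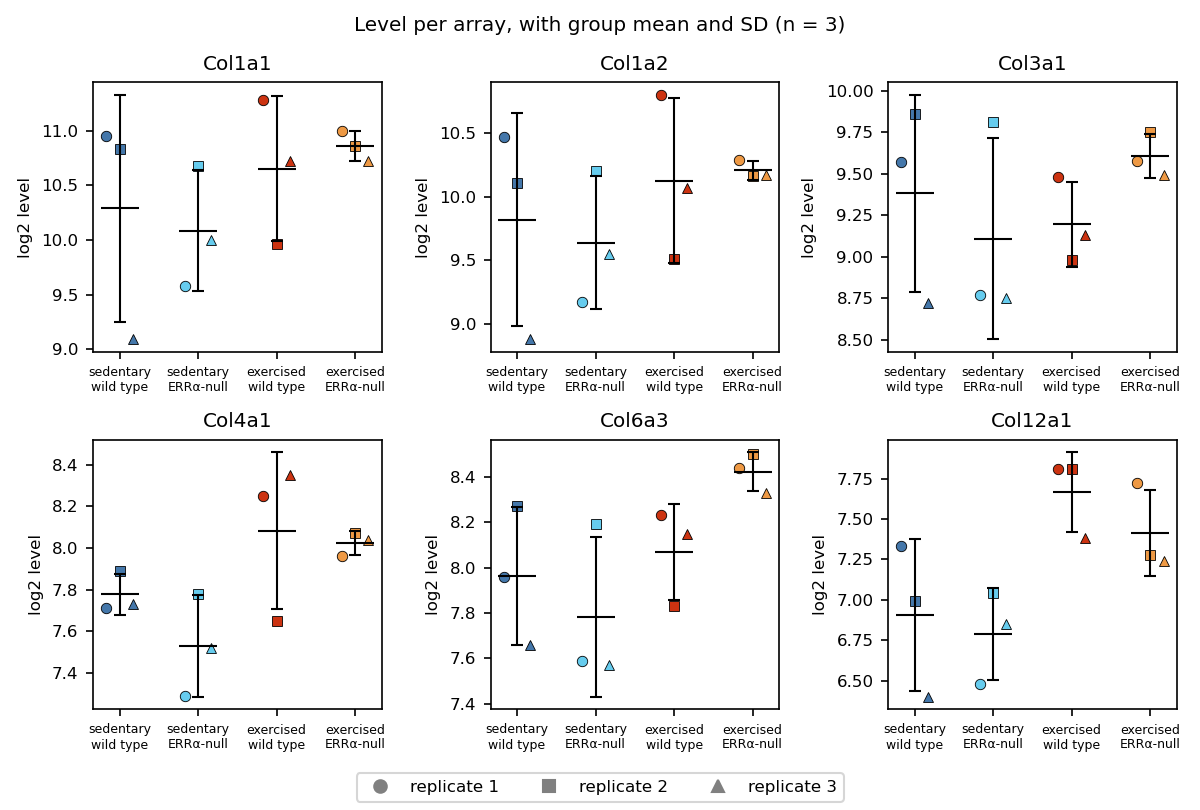
Log2 level of 6 collagen genes on each array, by group, with the group mean and SD (n = 3); symbols mark the replicate number. Col1a1 spans 1.86 log2 within sedentary wild type and 0.28 within exercised ERRα-null muscle, and Col12a1 lies higher in the exercised group of each genotype.

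Col5a1 and Col5a2 encode type V collagen, which starts fibrils and sets their width. Col5a1 was at 7.82, 7.89 and 7.47 in sedentary wild type, 7.28, 7.85 and 7.31 in sedentary ERRα-null, 7.65, 7.53 and 7.53 in exercised wild type, and 7.82, 7.91 and 7.80 in exercised ERRα-null muscle. Col5a2 was at 7.11, 7.23 and 6.68, then 6.66, 6.99 and 6.64, then 7.20, 6.94 and 7.04, and 7.12, 7.34 and 7.13 in the same order of groups. Both were low in sedentary ERRα-null replicates 1 and 3. For Col5a1 the exercised genotypes did not overlap. Of the other fibrillar genes, Col11a2, a minor cartilage-type chain, was at 6.58, 6.09 and 6.06 in sedentary wild type, 6.25, 6.23 and 6.35 in sedentary ERRα-null, 6.62, 6.35 and 6.56 in exercised wild type, and 6.44, 6.33 and 6.48 in exercised ERRα-null muscle, and overlapped in every comparison.

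Basement membrane collagen was measured through Col4a1 and Col4a2, the chains of the common type IV network. Col4a1 was at 7.71, 7.89 and 7.73 in sedentary wild type, 7.29, 7.78 and 7.52 in sedentary ERRα-null, 8.25, 7.65 and 8.35 in exercised wild type, and 7.96, 8.07 and 8.04 in exercised ERRα-null muscle. Col4a2 was at 7.48, 7.88 and 7.61, then 7.41, 7.74 and 7.45, then 7.99, 7.48 and 8.07, and 7.91, 7.92 and 7.86. Exercised wild type replicate 2 was the low array of its group for both genes. They shared the highest array in 4 of 4 groups and the lowest in 3 of 4. The same counts held for Col1a1 with Col1a2 and for Col3a1 with Col5a2. Col6a1 with Col6a2, and Col1a1 with Col3a1, shared the highest array in 2 of 4 groups and the lowest in 3 of 4. In ERRα-null muscle the exercised arrays lay above all sedentary ones for Col4a1 and Col4a2, and in wild type they overlapped.

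Col4a5, a chain of the specialised type IV network, was at 5.86, 5.86 and 5.60 in sedentary wild type, 5.54, 5.67 and 5.36 in sedentary ERRα-null, 5.56, 5.51 and 5.77 in exercised wild type, and 5.72, 5.89 and 5.72 in exercised ERRα-null muscle. These are dim signals, and only the ERRα-null states did not overlap.

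Type VI collagen, whose loss causes muscular dystrophy in people and mice, is built from Col6a1, Col6a2 and Col6a3. Col6a1 was at 9.41, 9.39 and 8.88 in sedentary wild type, 8.95, 9.46 and 8.85 in sedentary ERRα-null, 9.34, 9.03 and 9.09 in exercised wild type, and 9.44, 9.47 and 9.51 in exercised ERRα-null muscle. Col6a2 was at 8.34, 8.45 and 7.91, then 7.80, 8.37 and 7.86, then 8.34, 7.93 and 8.15, and 8.18, 8.55 and 8.36. Col6a3 was at 7.96, 8.27 and 7.66, then 7.59, 8.19 and 7.57, then 8.23, 7.83 and 8.15, and 8.44, 8.50 and 8.33. Col6a3 on the exercised ERRα-null arrays lay above all other 9 arrays. The sedentary ERRα-null arrays split, with replicate 2 high and replicates 1 and 3 low for all 3 chains.

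Col12a1 encodes a fibril-associated collagen that bridges fibrils in tendon and muscle fascia and is known to respond to mechanical load. It was at 7.33, 6.99 and 6.40 in sedentary wild type and at 7.81, 7.81 and 7.38 in exercised wild type. In ERRα-null muscle it was at 6.48, 7.04 and 6.85 when sedentary and at 7.72, 7.28 and 7.24 after exercise. In each genotype all exercised arrays lay above all sedentary ones. Col14a1, a relative that also coats fibrils, was at 7.03, 6.97 and 6.88, then 6.66, 7.36 and 6.62, then 7.05, 7.41 and 6.87, and 7.34, 7.41 and 7.36, in the order sedentary wild type, sedentary ERRα-null, exercised wild type, exercised ERRα-null. Col22a1, of the myotendinous junction, was dim at 6.11, 6.11 and 5.54, then 5.94, 6.02 and 5.97, then 5.98, 5.80 and 5.82, and 5.98, 5.95 and 6.06, and overlapped throughout.

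The multiplexin Col15a1, which anchors basement membranes to fibrils, was at 6.71, 6.77 and 6.73, then 6.40, 6.90 and 6.46, then 6.90, 6.48 and 6.65, and 6.73, 6.80 and 6.81, in that order of groups. Col18a1, the precursor of endostatin, was at 6.84, 6.52 and 6.58, then 6.38, 6.58 and 6.32, then 6.48, 6.20 and 6.46, and 6.33, 6.66 and 6.51. Its exercised wild-type arrays lay below the sedentary ones. Col8a2, of short-chain networks, was at 5.66, 5.56 and 4.95, then 5.17, 5.17 and 5.34, then 5.72, 5.28 and 5.64, and 5.65, 5.25 and 5.27. Col26a1 was at 6.24, 5.88 and 6.04, then 6.12, 6.27 and 6.0, then 6.10, 6.0 and 6.08, and 6.10, 6.42 and 6.24. Both overlapped in every comparison. The transmembrane collagens Col13a1, Col17a1, Col23a1 and Col25a1 stayed between 5.47 and 6.80. The 4 genes not tested ranged from 5.0 to 5.42 for Col4a6, 4.56 to 5.06 for Col6a4, 5.03 to 5.46 for Col9a1 and 4.40 to 4.85 for Col10a1.

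**Figure D2:**
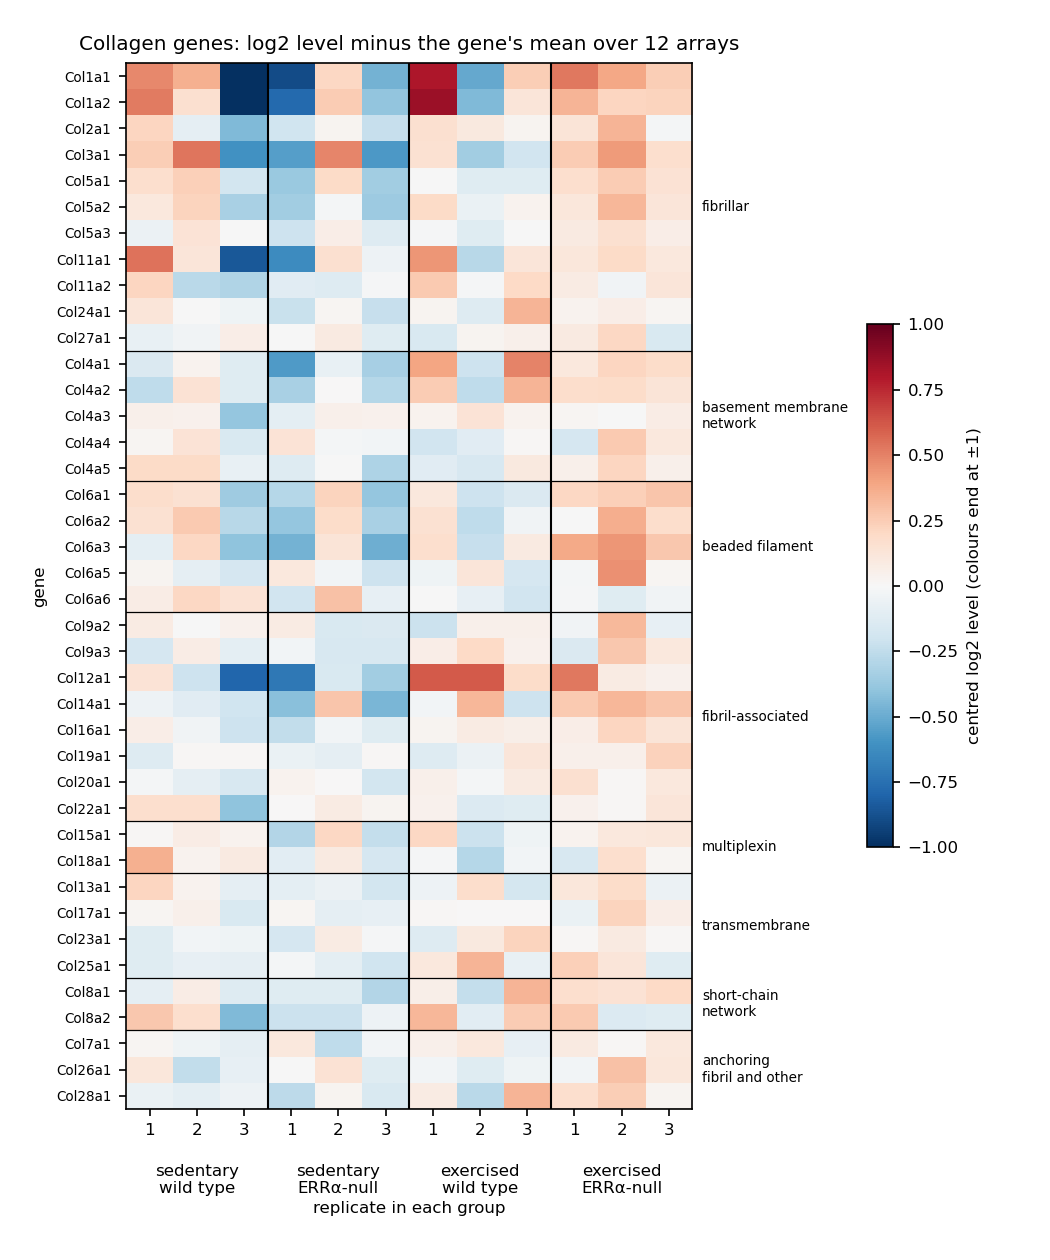
Each of the 40 tested collagen genes (rows, by structural class) on the 12 arrays (columns), as log2 level minus the gene's mean; red is above and blue below that mean. Sedentary wild type replicate 3 and sedentary ERRα-null replicates 1 and 3 are blue for most fibrillar genes, and the exercised ERRα-null arrays are mostly pale red.

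The spread between the mice of a group is described here by the SD of its arrays. The SD of the 3 arrays had a median over the 40 collagens of 0.15 in sedentary wild type, 0.14 in sedentary ERRα-null, 0.16 in exercised wild type and 0.09 in exercised ERRα-null muscle. Over all 13308 tested genes these medians were 0.11, 0.13, 0.13 and 0.11, so that the collagen median was the lower one in exercised ERRα-null muscle. Among the 14 collagens with a mean level of at least 7 they were 0.29, 0.31, 0.23 and 0.08, where the 6082 genes of that level had 0.10, 0.12, 0.11 and 0.10. The exercised ERRα-null group, which holds 2 arrays of female profile, had the smallest SD of the 4 groups for 20 of the 40 genes, and sedentary wild type for 6.

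Pooled over groups, the SD ran from 0.08 for Col20a1 to 0.68 for Col1a1, with 0.59 for Col1a2 and 0.45 for Col3a1 and for Col11a1. It was above the median of all tested genes, 0.14, for 27 of 40 collagens. For Col1a1 the SD was 1.04 in sedentary wild type, 0.56 in sedentary ERRα-null, 0.66 in exercised wild type and 0.14 in exercised ERRα-null muscle. The difference in spread between groups was not tested.

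**Figure D3:**
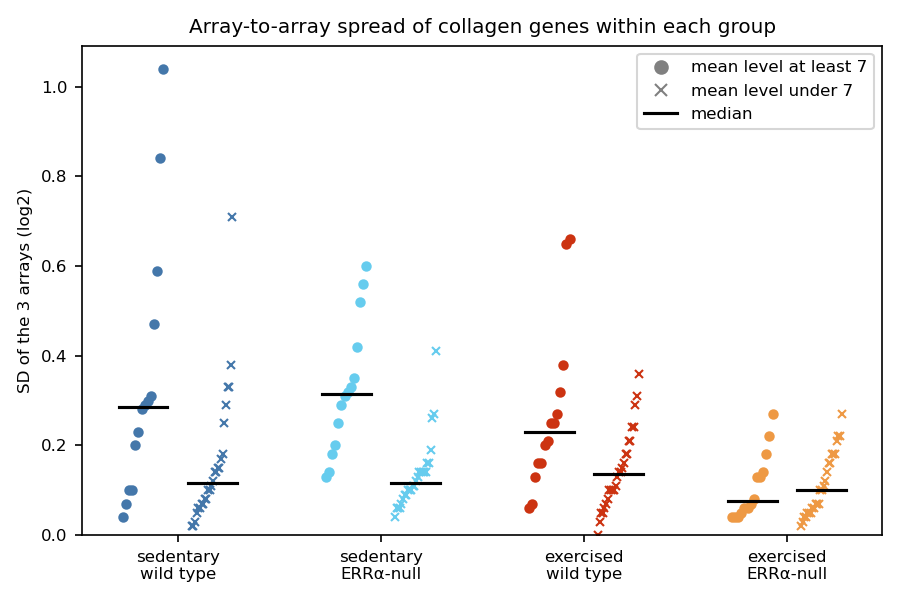
SD of the 3 arrays of each group (vertical axis, log2) for collagens with a mean level of at least 7 (circles) and under 7 (crosses), with black bars at the medians. The circles of exercised ERRα-null muscle have a median of 0.08, against 0.23 to 0.31 in the other groups.

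Single arrays were high or low for many collagens at once. Sedentary wild type replicate 3 was the lowest of its group for 26 of 40 genes, and replicates 1 and 2 were each highest for 19. Sedentary ERRα-null replicate 2 was the highest of its group for 28 genes. Exercised wild type replicate 2 was the lowest of its group for 22, and exercised ERRα-null replicate 2 the highest of its group for 25. Over all 12 arrays, exercised ERRα-null replicate 2 held the highest value of 16 genes, and sedentary wild type replicate 3 and sedentary ERRα-null replicate 3 the lowest of 11 each. The same counts were not taken over all tested genes, so they are not shown to be particular to collagens.

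Markers of tendon were low or high on some of these arrays and not on others. The list holds 9 genes without any collagen, all measured, with 1 under the tested level. Its mean, centred per gene, was −0.91 in sedentary wild type replicate 3, −0.47 in sedentary ERRα-null replicate 1 and −0.46 in exercised wild type replicate 2, where the fibrillar collagens were at −0.47, −0.39 and −0.17. It was highest, at 0.50, 0.46 and 0.41, in sedentary wild type replicate 1, exercised wild type replicate 1 and exercised ERRα-null replicate 1, where fibrillar collagens were at 0.23, 0.25 and 0.18. On other arrays the lists parted. Sedentary ERRα-null replicate 3 had tendon markers at 0.04 and fibrillar collagens at −0.27, and exercised ERRα-null replicate 2 had −0.02 and 0.23. Replicate 2 of sedentary wild type had −0.03 and 0.13, and that of sedentary ERRα-null muscle had 0.06 and 0.12. The summed tendon level (log2) ran from 11.03 to 12.57 in sedentary wild type, 11.52 to 12.02 in sedentary ERRα-null, 11.36 to 12.54 in exercised wild type and 11.97 to 12.46 in exercised ERRα-null muscle.

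Fmod, fibromodulin of tendon fibrils, was lowest at 9.35 (sedentary wild type replicate 3) and highest at 10.83 (replicate 1), and Kera, keratocan, from 6.54 to 8.99. Fibroblast markers, with 8 of 9 measured, had means between −0.32, sedentary ERRα-null replicate 3, and 0.24, exercised ERRα-null replicate 3. Their summed level ran from 12.83 to 12.90, 12.65 to 12.89, 12.73 to 12.97 and 12.78 to 12.99 in the 4 groups in the same order. Muscle fibre markers stayed between −0.14 and 0.08. Adipocyte markers had means of 1.82 in sedentary wild type replicate 3, and 0.90 and 1.02 in sedentary ERRα-null replicates 1 and 3. Those arrays had the lowest means over the 40 collagens, at −0.25, −0.23 and −0.21. The other sedentary arrays, wild type replicates 1 and 2 and ERRα-null replicate 2, had adipocyte means of −1.23, 0.92 and −0.78. Their collagen means were 0.08, 0.06 and 0.04. Beyond the fits with tendon and other-tissue scores given below, the part of tendon, fibroblast or adipocyte RNA in the collagen values was not tested.

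**Figure D4:**
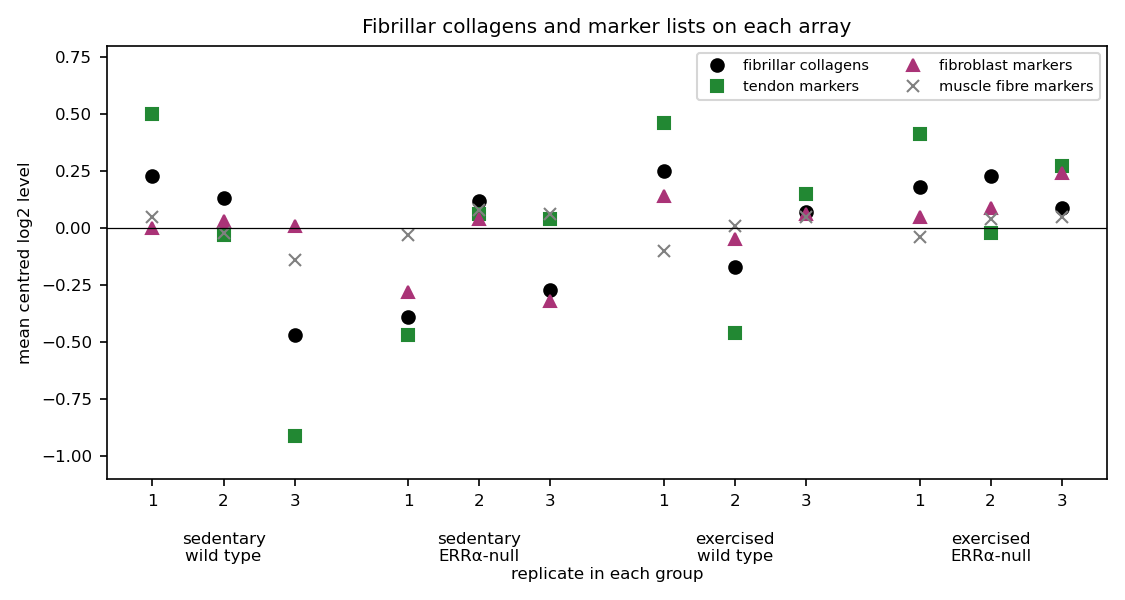
Mean centred log2 level of the fibrillar collagens and of the tendon, fibroblast and muscle fibre marker lists on each of the 12 arrays. Tendon markers reach −0.91 on sedentary wild type replicate 3, where the fibrillar collagens are also lowest, at −0.47, while muscle fibre markers stay near 0.

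At rest no collagen gene passed the test between ERRα-null and wild-type muscle. Of the 40 collagens 0 passed (0.0827% of all genes passed, or 11 of 13308), and 0 were under an unadjusted p of 0.05 in limma (8.22% of all genes). The values lay below 0 for 32 of 40, with a median of −0.11 where all genes had 0.00, and the genotypes overlapped for every tested collagen, where 6.91% of all genes were higher and 6.53% lower without overlap. The nearest were Col4a5 at −0.25 ± 0.12 (adjusted p = 0.617), Col18a1 at −0.22 ± 0.12 (adjusted p = 0.719) and Col5a2 at −0.25 ± 0.15 (adjusted p = 0.729). Col1a1 differed by −0.20 ± 0.46. With 1 array left out the median ran from −0.17 to −0.04, the latter without sedentary wild type replicate 2. It was −0.05, with 25 of 40 below 0, without sedentary wild type replicate 1, −0.05 without sedentary ERRα-null replicate 1, and −0.07 without its replicate 3. Beside these values, 0 of 8 fibroblast markers (median −0.22) and 0 of 6 endothelial markers (−0.31) lay above 0, against 5 of 8 tendon markers (0.01) and 5 of 7 smooth muscle and pericyte markers (0.04). The smooth muscle and pericyte list had centred means of 0.45, −0.01 and −0.33 on sedentary ERRα-null replicates 1 to 3. On sedentary wild type replicates 1 to 3 these means were −0.21, 0.02 and −0.03. The part of these marker lists in the result was not tested, other than by the tendon score, with which the collagen median was −0.12.

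After exercise, the ERRα-null values lay above wild type for 31 of 40 collagens, with a median of 0.10 against 0.00 for all genes. Again 0 passed (0.376% of all genes did), and 0 were under an unadjusted p of 0.05 (10.4% of all genes). Col3a1, Col5a1, Col5a3, Col6a1 and Col6a3 had no overlap between genotypes, ERRα-null higher, as did 6.64% of all genes, and 0 were lower without overlap (9.31% of all genes). Col6a3 differed by 0.36 ± 0.18 (adjusted p = 0.564), Col6a1 by 0.32 ± 0.17 (adjusted p = 0.578) and Col5a1 by 0.27 ± 0.15 (adjusted p = 0.596). The median was 0.05 when the 3 female-profile arrays were dropped, which leaves 1 exercised ERRα-null array, and 0.06 without exercised ERRα-null replicate 2. Tendon markers lay above 0 for 8 of 8 (median 0.19), smooth muscle and pericyte markers for 7 of 7 (0.28), fibroblast markers for 5 of 8 (0.04) and endothelial markers for 5 of 6 (0.05). With the tendon score in the model the collagen median was 0.08, with 28 of 40 above 0. Averaged over both states the collagen median was 0.00, with 22 of 40 above 0 (from −0.04 to 0.03, and from 11 to 27 of 40, over the other settings), and 0 passed where 1.43% of all genes did. The smallest p were those of Col26a1 (0.14 ± 0.08, adjusted p = 0.575), Col4a1 (−0.15 ± 0.12, adjusted p = 0.693) and Col8a2 (−0.16 ± 0.13, adjusted p = 0.726).

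Exercise in wild type had Col12a1 as the largest collagen difference, at 0.76 ± 0.23 or 1.69-fold, which did not pass (adjusted p = 0.107). Of 40 collagens 0 passed (3.43% of all genes passed) and 1, Col12a1, was under an unadjusted p of 0.05 (16.1% of all genes). The values were above 0 for 26, with a median of 0.06 against −0.01 for all genes. Col12a1, Col20a1 and Col25a1 were higher without overlap (10.0% of all genes), and Col6a6 and Col18a1 lower without overlap (11.0% of all genes). Col18a1 was at −0.26 ± 0.12 (adjusted p = 0.326) and Col11a2 at 0.27 ± 0.13 (adjusted p = 0.353). Without sedentary wild type replicate 1, Col12a1 was at 0.97 and passed (adjusted p = 0.0453). The median turned to −0.02 without sedentary wild type replicate 3, the array of low collagen, with 19 of 40 above 0. Exercised wild type replicate 3 has the female profile and no sedentary array does. Without the 3 arrays of that profile the median was 0.04, with 22 of 40 above 0. Tendon markers lay above 0 for 7 of 8 (median 0.20), fibroblast markers for 4 of 8 (0.00), and endothelial markers for 2 of 6 (−0.17). Adipocyte markers lay above 0 for 1 of 8 (−0.51), liver markers for 0 of 5 (−1.06) and lymphocyte markers for 0 of 3 (−1.79). With liver, adipocyte and lymphocyte scores in the model the collagen median was 0.01, with 22 of 40 above 0.

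In ERRα-null muscle, exercise values were above 0 for 39 of 40 collagens, with a median of 0.20 against −0.01 for all genes. Of the 40 collagens 0 passed (0.639% of all genes did), and 10 were under an unadjusted p of 0.05, all higher (13.1% of all genes, in either direction). The exercised arrays lay above all sedentary ones for 13 of 40 collagens, where 8.99% of all genes did so, and below for 0. Col6a3 had the smallest p, at 0.64 ± 0.18 or 1.56-fold (adjusted p = 0.153), then Col5a2 at 0.44 ± 0.15 (adjusted p = 0.224) and Col4a1 at 0.49 ± 0.17 (adjusted p = 0.227). Col1a1 differed by 0.77 ± 0.46 (adjusted p = 0.503). Exercised ERRα-null replicates 2 and 3 have the female profile and no sedentary array does, so it is partly confounded with this comparison. Without the arrays of that profile, which leaves 1 exercised ERRα-null array, the median was 0.20, with 34 of 40 above 0.

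By class, 11 of 11 fibrillar genes were above 0 in ERRα-null muscle with a median of 0.30, 5 of 5 basement membrane genes with 0.25, 4 of 5 beaded filament genes with 0.36 and 8 of 8 fibril-associated genes with 0.18. In wild type these were 7 of 11 (0.05), 3 of 5 (0.16), 2 of 5 (−0.07) and 6 of 8 (0.12). Over the other settings that kept 40 collagens, from 34 to 40 of them were above 0 in ERRα-null muscle, and the median ran from 0.17 to 0.27. All 8 tested fibroblast markers, all 8 tested tendon markers and all 6 endothelial markers lay above 0 too, with medians of 0.31, 0.36 and 0.18. Adipocyte markers lay above 0 for 0 of 8 (median −0.70). With the tendon score as a covariate the collagen median was 0.19, with 35 of 40 above 0. With liver, adipocyte and lymphocyte scores instead it was 0.23, with 34 of 40 above 0. No score covered seminal vesicle transcripts. With the array that carried them left out, sedentary ERRα-null replicate 1, the collagen median was 0.21, with 38 of 40 above 0. Without sedentary ERRα-null replicate 2, the high array of its group, Col14a1 passed and the median was 0.27.

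**Figure D5:**
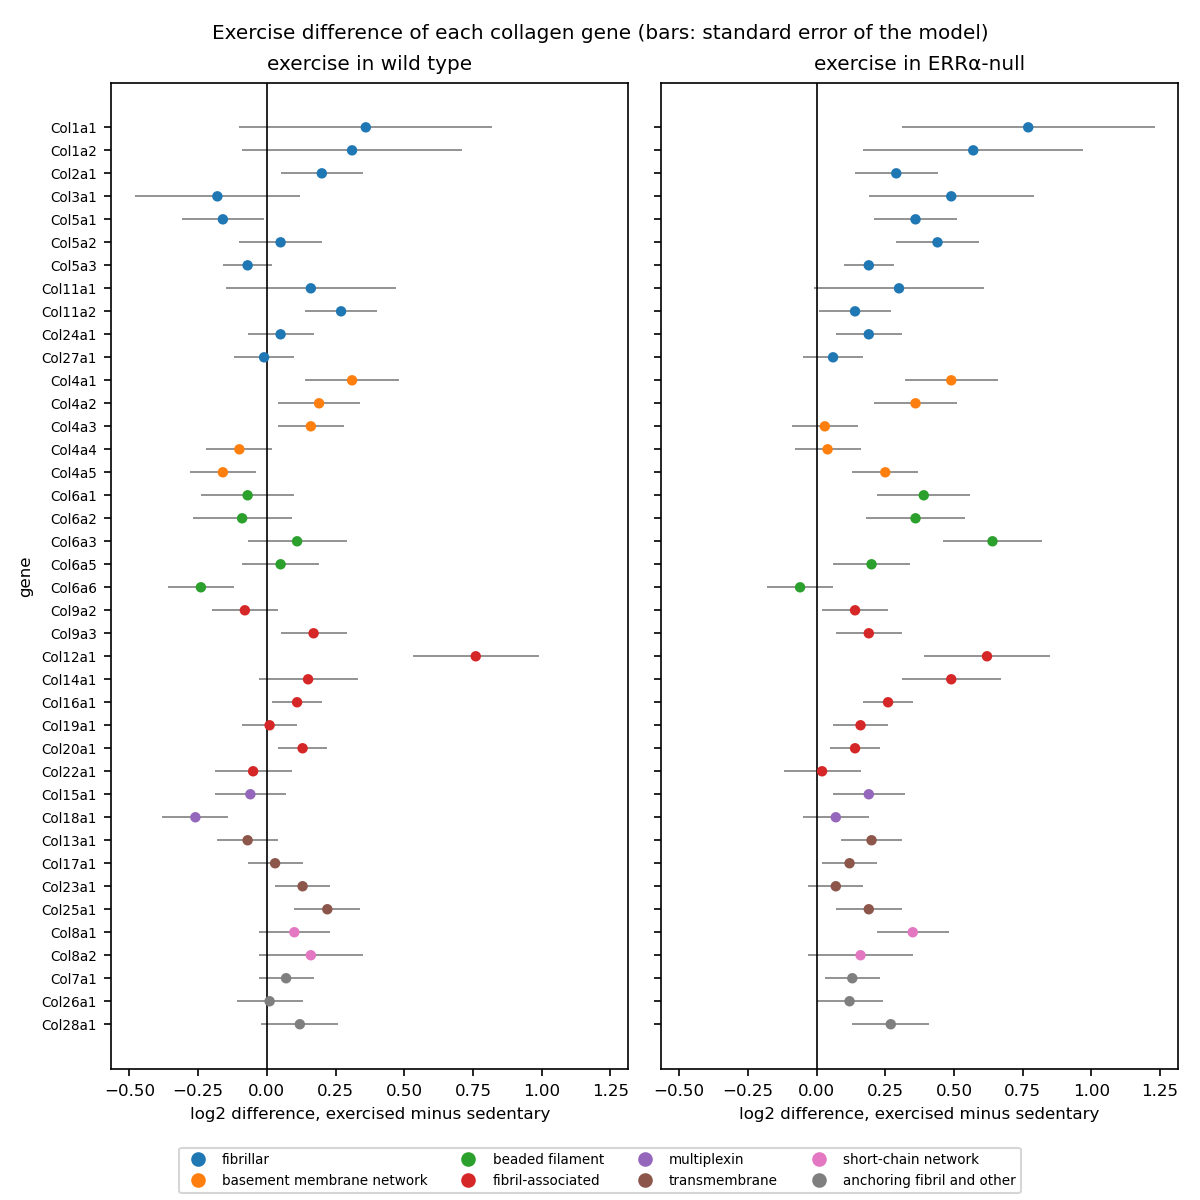
Log2 difference, exercised minus sedentary, of each tested collagen gene in wild type (left) and ERRα-null muscle (right), with bars of 1 standard error and colours for the structural class. In ERRα-null muscle 39 of 40 points lie above 0, in wild type 26, and Col12a1 lies at 0.76 and 0.62.

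The difference between genotypes in the exercise response was tested itself, as the interaction. Its median over collagens was 0.15, with 35 of 40 above 0, against 0.00 for all genes, and ran from 0.10 to 0.22 over the other settings. Fibroblast markers were above 0 for 8 of 8 (median 0.22), tendon markers for 8 of 8 (0.20), endothelial markers for 6 of 6 (0.36) and smooth muscle and pericyte markers for 6 of 7 (0.25). Of the 40 collagens 0 passed, where 0.00751% of all genes did, and 2 were under an unadjusted p of 0.05, against 5.12% of all genes. These were Col5a1 at 0.52 ± 0.21 and Col4a5 at 0.41 ± 0.17 (adjusted p = 0.948 for each), followed by Col6a3 at 0.53 ± 0.26 (adjusted p = 0.994). For Col12a1 it was −0.14 ± 0.32 (adjusted p = 0.999). The female profile lies on exercised arrays only, so it is partly confounded with this comparison too. Without those arrays, which leaves 1 exercised ERRα-null array, the collagen median was 0.18, with 32 of 40 above 0. The collagen response was thus not shown to differ between genotypes.

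Averaged over genotypes, Col12a1 rose with exercise by 0.69 ± 0.16, or 1.61-fold (limma, adjusted p = 0.0246). It was the 1 collagen of 40 to pass, 2.50% of them, where 6.57% of all genes did and 3.14% passed as higher. Another 11 were higher at an unadjusted p under 0.05 and 0 lower (22.5% of all genes, in either direction). Col4a1 was at 0.40 ± 0.12 (adjusted p = 0.0661), Col6a3 at 0.37 ± 0.13 (adjusted p = 0.112) and Col16a1 at 0.19 ± 0.07 (adjusted p = 0.115). Values were above 0 for 36 of 40, with a median of 0.13 against −0.01 for all genes. Without the 3 arrays of female profile, all of them exercised, 33 of 40 were above 0, with a median of 0.13.

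The call of Col12a1 is near its threshold. It was lost without exercised wild type replicates 1 or 2 or sedentary ERRα-null replicates 1 or 3 (0.61 to 0.71, adjusted p from 0.0504 to 0.0596), when the 3 female-profile arrays were dropped (0.92, adjusted p = 0.0782), and when scores of the other tissues entered the model (0.75, adjusted p = 0.152). It kept the call with the tendon score as a covariate, at 0.56 (adjusted p = 0.0303). Without exercised wild type replicate 2, the array with low endothelial and tendon markers, Col4a1 (0.51, adjusted p = 0.00586), Col4a2 and Col8a1 passed instead.

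Some genes that fold and modify collagen changed with exercise. Of 22 such genes 20 were measured and tested, and averaged over genotypes 3 rose and 1 fell, where 6.57% of all genes passed and 3.14% as higher. Serpinh1, the collagen-specific chaperone HSP47, rose by 0.77 ± 0.09, or 1.71-fold (adjusted p = 0.000555), from 7.93 ± 0.27 to 8.71 ± 0.16 in wild type and from 7.73 ± 0.16 to 8.50 ± 0.08 in ERRα-null muscle (SD, n = 3 each). P4ha1, a catalytic subunit of prolyl 4-hydroxylase, rose by 0.57 ± 0.08 (adjusted p = 0.00111), and Plod1, a lysyl hydroxylase, by 0.31 ± 0.07 (adjusted p = 0.0275). Mia3, which loads procollagen into transport vesicles, fell by 0.22 (adjusted p = 0.0143). P4ha2 was called in wild type, at 0.50 ± 0.12 (adjusted p = 0.0434), where 3.43% of all genes were. It was at 0.08 ± 0.12 in ERRα-null muscle (adjusted p = 0.827), and the interaction of −0.42 ± 0.17 did not pass (adjusted p = 0.948). Serpinh1 passed in each genotype, in wild type at 0.78 and in ERRα-null muscle at 0.77. P4ha1 passed in wild type, at 0.73 ± 0.11 (adjusted p = 0.00301). In ERRα-null muscle it was at 0.41 ± 0.11 (adjusted p = 0.131), and its interaction did not pass (adjusted p = 0.994).

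For processing and cross-linking 0 of 10 tested genes passed in the averaged exercise comparison, against 6.57% of all genes. Lox, lysyl oxidase, was at 0.55 ± 0.19 (adjusted p = 0.114). Of 7 collagen receptors Ddr1, a receptor kinase, fell by 0.30 (adjusted p = 0.0166), and 0 rose, against the same 6.57%. Of 7 genes of breakdown and its inhibitors 0 passed, with Timp3, a matrix-bound inhibitor, at 0.23 ± 0.08 (adjusted p = 0.116). By genotype, averaged over states, 0 genes of these lists and of the folding list passed (1.43% of all genes did), and the smallest p were those of P4ha2 (−0.34 ± 0.08, adjusted p = 0.0825), Pcolce2 (−0.14), Itga2 (−0.13) and Timp4 (−0.34).

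Partners of the fibrils and signals that induce matrix were tested as well, and the shares of all genes called are again 6.57%, or 3.14% as higher. Of 18 tested fibril-bound proteins 3 rose averaged over genotypes: Thbs1, thrombospondin 1, by 1.46 ± 0.21 or 2.74-fold (adjusted p = 0.00164), Tnc, tenascin C of loaded tendon and injured muscle, by 0.48 ± 0.09 (adjusted p = 0.00739), and Fbln1, a fibulin, by 0.35 ± 0.09 (adjusted p = 0.0396). Thbs1 was at 1.88 ± 0.30 in wild type and 1.03 ± 0.30 in ERRα-null muscle, and Tnc at 0.56 ± 0.13 and 0.40 ± 0.13. Both passed in wild type (adjusted p = 0.00414 and 0.0308) and neither in ERRα-null muscle (adjusted p = 0.155 and 0.206). Neither interaction passed (adjusted p = 0.994 and 0.999). Of 18 tested matrix-inducing signals Ccn1, a matricellular protein induced by stretch, rose by 1.29 ± 0.19 or 2.45-fold (adjusted p = 0.00175), Smad3 of the TGF-beta pathway by 0.50 ± 0.08 (adjusted p = 0.00245) and Tgif1, a repressor of that pathway, by 0.47 ± 0.12 (adjusted p = 0.0401). Smad2 fell by 0.31 (adjusted p = 0.0283). Ccn1 and Smad3 also passed in wild type, at 1.56 ± 0.27 (adjusted p = 0.00736) and 0.69 ± 0.11 (adjusted p = 0.00383), where 3.43% of all genes did. In ERRα-null muscle they were at 1.03 ± 0.27 (adjusted p = 0.126) and 0.30 ± 0.11 (adjusted p = 0.254). Their interactions did not pass (adjusted p = 0.999 and 0.948). Skil, another repressor, was called in wild type (0.54 ± 0.13, adjusted p = 0.0450) and was at −0.03 ± 0.13 in ERRα-null muscle, and the interaction of −0.56 ± 0.18 did not pass (adjusted p = 0.868). By genotype averaged over states the smallest p in these lists were those of Aspn (−0.26) and Skil (−0.22), and neither passed.

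Among the marker lists, 2 of 8 fibroblast markers rose with exercise averaged over genotypes, Mfap5 by 0.47 ± 0.11 (adjusted p = 0.0301) and Thy1 by 0.32 ± 0.09 (adjusted p = 0.0487), and 0 of 8 tendon markers did, where 3.14% of all genes rose. Of 6 macrophage markers Cd14 rose by 0.75 ± 0.15 (adjusted p = 0.0104) and Csf1r fell by 0.42 (adjusted p = 0.0420). Cd14 also passed in wild type (1.01 ± 0.21, adjusted p = 0.0225), and was at 0.49 ± 0.21 in ERRα-null muscle (adjusted p = 0.344). Its interaction did not pass (adjusted p = 0.997). In the averaged exercise comparison 0 of 8 adipocyte markers (median −0.58), 0 of 5 liver markers (−1.1) and 0 of 3 lymphocyte markers (−1.42) lay above 0, with 0 called. Of the collagens, 36 of 40 lay above 0 there, as did 8 of 8 tendon and 7 of 8 fibroblast markers (medians 0.27 and 0.14). Scx, the tendon transcription factor scleraxis, was higher in ERRα-null muscle averaged over states, by 0.34 ± 0.07 (adjusted p = 0.0375), where 1.43% of all genes were called.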

How the data were processed

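The 12 gastrocnemius RNA samples were each measured on 1 Affymetrix Mouse Gene 2.0 ST array. The deposited values are log2 expression values, for which the submitters' processing notes name RMA, Expression Console and Transcriptome Analysis Console without their roles. No version, option or build is given in the sources used here. RMA puts arrays on a common distribution, so differences are relative to the bulk of the transcripts, and arrays have no read depth, so that their number limits the precision.

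Symbols come from the platform annotation, updated through RefSeq gene identifiers. Probesets with several symbols, 1 of them holding Col6a1, were left out, and the 40% of genes with the lowest mean were not tested. A model of 4 group means was fitted to the 12 arrays with limma 3.58.1 in R 4.3.3 (8 residual degrees of freedom, intensity trend), for 7 comparisons. P-values are two-sided and adjusted by the Benjamini-Hochberg method over all 13308 genes. Values after ± are standard errors unless SD is written, and adjusted p-values are those of limma. The fit was tested on simulated data, with independent noise for each gene and larger differences than those of the collagens. That test does not show how well differences of the collagens' size are found on these arrays.

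The collagen genes and the lists were chosen with earlier results of these data known, so lists are given by counts and medians without a test. Values per array are given for a set list of collagens, those called and the 3 of smallest p in each comparison; other lists give called genes or the smallest p in the averaged comparisons. Equal replicate numbers deviated together across genes on the exercised arrays (Pearson correlations 0.174 to 0.312 over 3 pairs) with every pair above 0.1, and not all were above 0.1 in other pairs of groups (0.063 to 0.269 for wild type across states). Across unequal numbers the largest correlation was 0.63, for sedentary wild type replicate 1 with sedentary ERRα-null replicate 2. Alternatives were a replicate block, other filters, probeset means, centring, covariates and arrays left out.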

Additional observations from a re-analysis of the deposited data

How the results depend on the processing

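With 3 arrays a group, 12 alternatives left out 1 array each and up to 10 others changed a setting. With 1 array left out the collagen median ran from −0.17 to −0.04 for genotype at rest, 0.06 to 0.12 after exercise, −0.02 to 0.10 for exercise in wild type, 0.17 to 0.27 in ERRα-null muscle, 0.10 to 0.22 for the interaction, 0.09 to 0.16 for exercise and −0.04 to 0.03 for genotype averaged. In the 1 comparison with a call, exercise averaged over genotypes, the count moved under 9 of 20 alternatives. Its count of 1 became 2 with median centring (Col12a1 and Col4a1, the latter at 0.45, adjusted p = 0.0303), 0 with other-tissue scores, 0 without the 3 arrays of female profile, and 0 to 4 when 1 array was left out. It was 0 to 1 for exercise in wild type and in ERRα-null muscle, and 0 for the other comparisons. The replicate block, over all arrays or, added after the data were seen, on the exercised arrays alone, changed no collagen call, with 1 called for exercise averaged over genotypes, Col12a1 (adjusted p = 0.0206), and 0 elsewhere. For Col12a1 the uncalled genotype difference at rest ran from −0.37 to 0.09 with 1 array left out, above 0 when sedentary wild type replicate 1 (0.09) or sedentary ERRα-null replicate 1 (0.04) was dropped. The interaction ran from −0.35 to 0.12, above 0 when sedentary wild type replicate 3 was dropped, and was 0.02 without the arrays of female profile; the cause was not tested. Where an array is left out of a group of 3, or the profile leaves 1, the spread is taken from all groups.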
